A study of Rattus norvegicus with 18 samples.

Results

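Primary rat microglia treated with Aβ40 fibrils were compared with untreated microglia, and the comparison uses 6 of the 18 libraries of the series. They are the microglia libraries labelled Aβ40 (replicates 1, 2 and 3) and control (replicates 1, 2 and 3), and they were chosen by cell type and treatment alone. The cells came from the cortex of wild-type Sprague–Dawley rat pups at an age of 2 days, were shaken off mixed glial cultures and were kept without serum for 3 h. The Aβ40 group then received Aβ40 fibrils, the fibrillar form of the shorter common amyloid-β peptide grown on fibril seeds, at 25 µM for 24 h, and the control group received no fibrils. RNA was sequenced as poly(A)-selected, stranded libraries with paired reads of 150 bases, and the values are counts of reads on genes. The sources do not say whether the replicates are separate cultures, so the tests measure the spread between these samples, which may be technical. The cells were grown from newborn brain on plastic with serum beforehand, which limits them as a model of adult microglia.

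Microglia are the resident macrophages of the brain. At rest they carry out surveillance of the tissue and depend on signalling through the receptor Csf1r, and they remove material by phagocytosis into lysosomes. Pattern recognition receptors activate NF-κB, a family of transcription factors that induces chemokines, cytokines and enzymes of inflammatory mediators, and type I interferon signalling induces a separate group of antiviral genes. In mice with amyloid plaques, microglia near plaques lose homeostatic genes and raise a group called disease-associated microglia genes, among them the lipid-sensing receptor Trem2 and the lipid carrier Apoe.

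The libraries held 2271834 to 8249339 counts on genes, and the mean total of the Aβ40 group was 0.54 times that of the control group. Counts were therefore expressed relative to each library's total as CPM, with a correction for composition (TMM), and these values are called scaled CPM. The detection limit was set at 3 counts in a library, a mean of 0.464 scaled CPM in the control group and 0.925 in the Aβ40 group. All 14 microglial markers were detected in the control libraries, with a summed level of 8148 to 9890 scaled CPM. In the Aβ40 libraries the sum was 3001 to 3458, since 13 of the 14 fell and 1, the integrin Itgam, rose. Markers of other cells were present in both groups. The summed oligodendrocyte lineage markers were 2575 to 2854 scaled CPM in control and 3006 to 3677 in Aβ40 libraries (5 of 10 rose, 1 fell), those of neurons 326 to 339.8 and 449.1 to 472.5 (2 of 6 tested rose), and those of astrocytes 246.8 to 277.4 and 237.6 to 260.8 (3 of 8 tested rose, 1 fell). Among the astrocyte markers Gja1 (log2 1.55), Aqp4 (1.07) and Sox9 (0.71) rose, while Slc1a3 (-1.91) fell. The summed markers of endothelial cells were 185.6 to 189.9 and 89.9 to 114.5 (1 of 4 tested rose, 2 fell), with Cldn5 at 0 counts. Cdh5 rose (log2 1.69), while Flt1 (-1.13) and Kdr (-0.97) fell. Those of fibroblasts and pericytes were 59.8 to 75.1 and 121.1 to 127.8 (2 of 5 tested rose, 2 fell). Of these sums Dcn made up 0.825, 0 and 0.458 in the control and 69.0, 62.0 and 63.0 in the Aβ40 libraries. Lum also rose (2.26), whereas Col3a1 (-2.33) and Pdgfrb (-1.25) fell. Among lymphocyte and neutrophil markers Cd3e, Ms4a1 and Mpo had 0 counts in the 6 libraries, and the sum of 0.118 to 0.305 in control and 6.93 to 12.3 in Aβ40 libraries came mostly, in the latter, from S100a8 and S100a9. The part of these other cells in the results was not tested. In such bulk samples, fewer cells of a type and less RNA of a gene per cell cannot be told apart.

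Across the 10837 genes tested, 4445 (41%) differed between Aβ40 and control microglia at an adjusted p under 0.05 (edgeR's quasi-likelihood test, p-values adjusted by Benjamini-Hochberg over these genes). The number that rose was 2126 (19.6%) and the number that fell was 2319 (21.4%). At a change of 2-fold or more these were 970 (8.95%) and 935 (8.63%), and at 5-fold or more 364 (3.36%) and 268 (2.47%). The median log2 fold change over all tested genes was 0.01. The 3 Aβ40 libraries lay above the 3 control libraries for 29% of all tested genes and below them for 30.5%, shares that stand beside statements that the groups did not overlap, while the counts of list members that rose or fell stand beside the 19.6% and 21.4% above. With 3 libraries against 3, an exact two-sided permutation test of a single gene cannot give a p under 0.1. The edgeR p-values borrow the estimate of the spread from all genes.

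**Figure D1:**
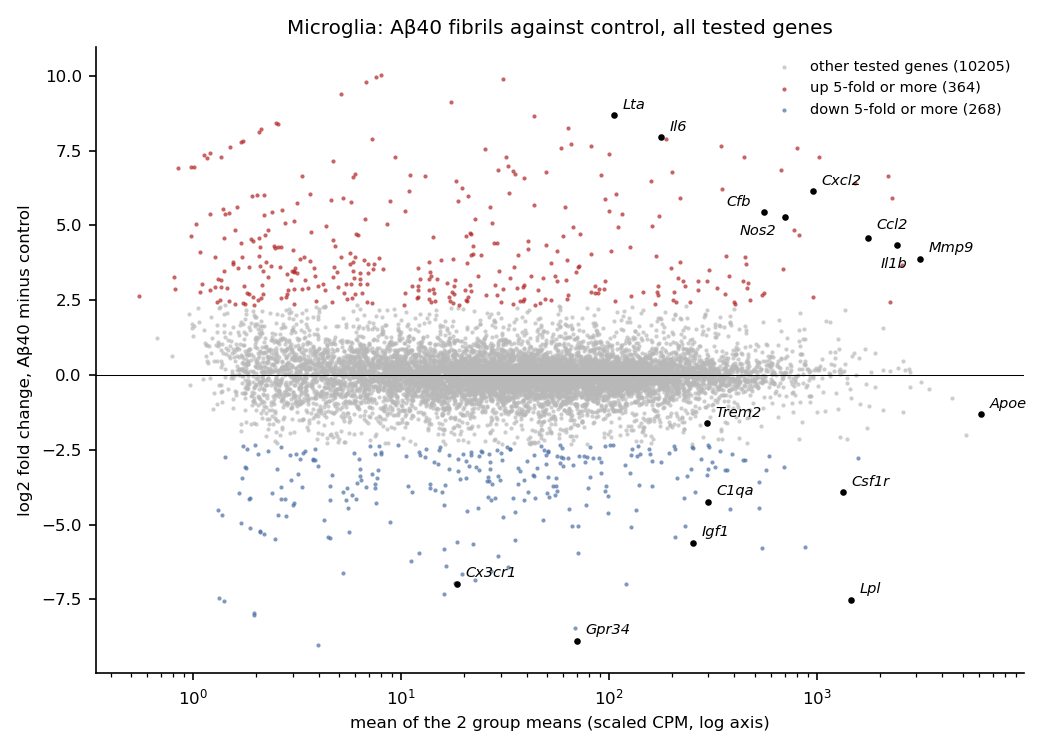
Log2 fold change of Aβ40 against control microglia (vertical axis) and mean of the control and Aβ40 levels in scaled CPM (horizontal log axis) for each tested gene, with 364 genes up 5-fold or more in red, 268 genes down 5-fold or more in blue and a few genes named. Inflammatory genes such as Il6 and Mmp9 lie far above 0 and Gpr34, Lpl and Csf1r far below it; for genes near the detection limit in one group, such as Gpr34 and Cx3cr1, the plotted fold depends on the fit's prior count.

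Most tested chemokine genes rose. Of 35 listed chemokine genes 25 had enough counts to be tested, and 23 of these rose (92%, against 19.6% of all tested genes) and 0 fell, with a median log2 fold change of 3.67, and 19 of them rose 5-fold or more. A gene near 0 in control was tested only because a fibril-treated group was high. Such a gene could be called only as an increase. With no filter on counts 25 of 32 rose and 0 fell. With 10 counts required in every library 14 of 15 rose and 0 fell. Ccl2, which attracts monocytes, stood at 172, 129 and 119 scaled CPM in control replicates 1, 2 and 3 and at 3172, 2983 and 3972 in the Aβ40 replicates. The groups were far apart, with a log2 fold change of 4.59 ± 0.24 (SE) and an adjusted p of 2.20e-08 by edgeR's quasi-likelihood test. The neutrophil attractant Cxcl1 was at 40.2, 38.8 and 27.1 in control and 2742, 2665 and 3565 in Aβ40 libraries, the highest of them in replicate 3. It showed no overlap and a log2 fold change of 6.40 ± 0.28 (edgeR adjusted p = 5.31e-09). Its relatives Cxcl2 (log2 6.13), Cxcl3 (6.84) and Cxcl6 rose in the same way, although reads of such similar genes may be shared between them. Cxcl6 was near the detection limit in control, at 0.589, 0.193 and 0.305 scaled CPM (5, 1 and 2 counts), and reached 136, 130.4 and 111 with Aβ40. Ccl20, a ligand of Ccr6 on lymphocytes and dendritic cells, rose from 1.14 ± 0.520 to 198 ± 7.83 scaled CPM (SD, n = 3 each; log2 7.37). Ccl22, an attractant of Ccr4-bearing T cells, had 0, 1 and 3 counts in the control libraries and 364, 351 and 204 in the Aβ40 libraries. The macrophage attractants Ccl3 (3.67), Ccl4 (3.15) and Ccl5 (5, 1 and 3 counts in control, 81, 96 and 44 in Aβ40 libraries) and the interferon-induced Cxcl9 (3.57), Cxcl10 (2.48) and Cxcl11 (5.98) also rose. Cx3cl1, the ligand of the microglial receptor Cx3cr1, rose from 12.6 ± 1.91 to 240.4 ± 5.94 (log2 4.26). The members that did not pass were Cxcl14 at 3.12 ± 0.200 and 3.69 ± 0.324, and Cxcl16 at 709 ± 10.7 and 663 ± 51.1 scaled CPM in control and Aβ40.

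Chemokine receptors were few. Of 5 tested, 3 rose and 1 fell. Ccr1, a receptor of Ccl3 and Ccl5, rose by 2.18 on the log2 scale, the decoy receptor Ackr3 by 2.02 and Ccrl2, which binds chemerin, by 2.47. Cxcr4, the receptor of Cxcl12, was at 99.0, 97.5 and 95.5 in control and 4.83, 7.16 and 5.06 in Aβ40 libraries. All Aβ40 libraries were below all control libraries, with a log2 fold change of -4.06 ± 0.28 (edgeR adjusted p = 2.46e-07). Its ligand Cxcl12 moved the other way, from 0.964 ± 0.257 to 14.7 ± 2.48 (log2 3.90).

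Most tested cytokines also rose, with 21 of 25 tested genes higher and 1 lower, a median log2 fold change of 2.88 and 18 genes up 5-fold or more. The same limit of genes near 0 in control holds here. With no filter on counts 23 of 32 rose and 1 fell. With 10 counts required in every library 11 of 14 rose and 0 fell. Interleukin 6 (Il6) was low in the control libraries, at 2.12, 1.93 and 0.152 scaled CPM, and stood at 339.5, 312 and 413 in the Aβ40 libraries. The log2 fold change was 7.94 ± 0.36 (edgeR adjusted p = 5.65e-09). Il1b, the precursor of the pyrogenic interleukin 1β, was well expressed before treatment, at 243, 199 and 233, and reached 4391, 4310 and 5110. Its log2 fold change of 4.35 ± 0.14 was smaller than that of Il6, and the groups did not overlap (edgeR adjusted p = 8.70e-10). Il1a, which signals through the same receptor, rose from 43.3 ± 11.3 to 4326 ± 622 (log2 6.64), and the receptor antagonist Il1rn rose as well, from 146 ± 56.0 to 937 ± 356 (log2 2.68). Tnf was at 116, 101 and 108 in control and at 1188, 1258 and 1353 in Aβ40 libraries. The change was 3.54 ± 0.12 on the log2 scale (edgeR adjusted p = 1.16e-09). Lymphotoxin α (Lta), encoded beside Tnf and binding the same receptors, went from 0.553 ± 0.374 to 210.3 ± 7.63 (log2 8.68). The colony stimulating factors Csf2 (log2 7.66) and Csf3 (7.59), which drive granulocyte and macrophage production, rose strongly and Csf1, the ligand of Csf1r, rose slightly (0.62). Of the chains of interleukins 12 and 23, Il23a had 5, 2 and 3 counts in the control and 167, 169 and 84 in the Aβ40 libraries, and Il12b had 1, 0 and 1 and 72, 59 and 54. The anti-inflammatory Il10 rose from 1.55 ± 1.01 to 5.42 ± 0.963 (log2 1.71). Il16 was the member that fell, with 258, 124 and 273 counts in control and 0, 1 and 1 counts in Aβ40 libraries. The alarmins Il33 (29.9 ± 3.44 and 26.9 ± 4.39) and Il18 (103 ± 18.4 and 81.1 ± 8.53) overlapped between the groups and did not pass.

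**Figure D2:**
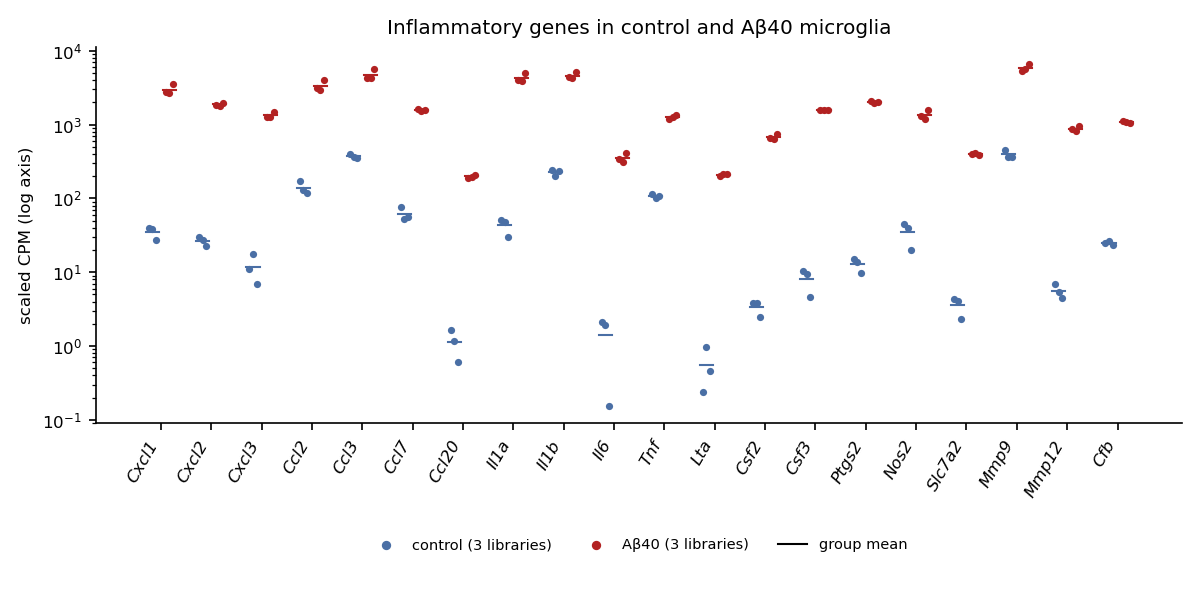
Scaled CPM on a log axis of chemokine, cytokine, enzyme, protease and complement genes in the 3 control (blue) and 3 Aβ40 libraries (red), with a bar at each group mean. In every gene shown all Aβ40 points lie above all control points. The distance is less for Il1b and Tnf, which were well expressed in control, than for Il6 and Lta, which were low there.

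NF-κB binds a short, nearly palindromic DNA site, and promoters with such a site are shown because they carry the letters beside the start of genes that rose. The sequences are from RefSeq (GRCr8) and run from 250 bases before to 50 after the annotated start, written along the gene; capitals mark a match, on either strand, to GGGA, 1 base of any kind and TTTCC. Cxcl1 (chr14:17479272-17479571, minus strand) and Cxcl6 (chr14:17596368-17596667, minus strand) lie on chromosome 14. Il6 lies on chromosome 4 (chr4:5894526-5894825, minus strand) and Nfkbia, the inhibitor IκBα, on chromosome 6 (chr6:78597023-78597322, minus strand).
Cxcl1: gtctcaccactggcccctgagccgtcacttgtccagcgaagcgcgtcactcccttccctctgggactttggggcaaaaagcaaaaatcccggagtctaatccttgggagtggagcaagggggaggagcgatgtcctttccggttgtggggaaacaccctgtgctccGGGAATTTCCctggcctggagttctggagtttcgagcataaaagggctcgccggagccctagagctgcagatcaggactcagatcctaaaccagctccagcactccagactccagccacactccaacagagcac
Cxcl6: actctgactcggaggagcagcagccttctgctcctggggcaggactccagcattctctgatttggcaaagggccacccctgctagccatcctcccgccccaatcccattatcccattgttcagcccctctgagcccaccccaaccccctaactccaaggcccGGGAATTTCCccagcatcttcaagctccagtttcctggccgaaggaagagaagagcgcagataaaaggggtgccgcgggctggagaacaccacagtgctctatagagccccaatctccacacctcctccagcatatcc
Il6: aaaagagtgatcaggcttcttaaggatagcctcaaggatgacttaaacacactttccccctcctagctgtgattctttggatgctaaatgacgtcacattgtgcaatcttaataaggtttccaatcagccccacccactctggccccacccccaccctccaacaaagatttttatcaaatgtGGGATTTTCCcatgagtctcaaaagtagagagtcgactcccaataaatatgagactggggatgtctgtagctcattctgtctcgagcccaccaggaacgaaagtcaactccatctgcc
Nfkbia: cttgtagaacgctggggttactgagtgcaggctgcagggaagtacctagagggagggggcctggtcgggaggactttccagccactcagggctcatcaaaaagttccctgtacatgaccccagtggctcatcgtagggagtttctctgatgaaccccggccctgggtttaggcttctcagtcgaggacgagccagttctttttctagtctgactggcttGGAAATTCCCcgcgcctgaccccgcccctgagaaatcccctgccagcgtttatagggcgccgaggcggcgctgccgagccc
The match begins 84 bases before the start in Cxcl1, 88 in Cxcl6, 68 in Il6 and, on the opposite strand, 31 in Nfkbia. Cxcl1 and Cxcl6 carry the same letters, GGGAATTTCC. A match was found in 121 of 33469 rat promoters (0.362%) and in 41 of the 7935 tested genes with 1 promoter sequence (0.517%). Among the 243 genes up 5-fold or more with a sequence 9 held it (3.7%), and among the 187 down 5-fold or more 0 did. In the NF-κB pathway list 4 of 15 promoters held it (Nfkb1, Nfkb2, Nfkbia and Nfkbiz). Most promoters of the other lists examined had no match. The numbers were 2 of 19 in chemokines, 2 of 14 in cytokines, 2 of 29 in the interferon response and 1 of 46 in the cell cycle. The homeostatic and lysosome lists had 0. The interferon response genes with a match were Gbp5, which rose, and Irf3, which fell (log2 -0.42). A match describes letters in this window only.

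The NF-κB pathway list itself had 14 of 19 tested members up and 2 down, with a median log2 fold change of 0.88. The members that rose most were inhibitors and target genes of the pathway. Nfkbia was at 165, 127 and 136 scaled CPM in control and 782, 794 and 833 in Aβ40 libraries. The libraries of each group were close together, and the log2 fold change was 2.49 ± 0.13 (edgeR adjusted p = 2.20e-08). Birc3, a ubiquitin ligase and survival factor, rose by 3.98, the TNF receptor adaptor Traf1 by 3.13 and the nuclear IκB proteins Bcl3 and Nfkbiz by 2.06 and 1.69. The subunit genes Nfkb2 and Nfkb1 rose by 0.90 and 0.59, and Rela, which encodes the p65 subunit, fell from 204 ± 12.6 to 144 ± 0.436 (log2 -0.50). Map3k14, the kinase of the non-canonical branch, fell as well (-0.63).

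Receptors and signal carriers upstream moved in both directions. In the Toll-like receptor pathway 5 of 18 tested members rose and 10 fell, with a median of -0.56. Cd14, the co-receptor for lipopolysaccharide, rose by 1.21 and Tlr2 by 0.51, while Tlr4 fell by 1.20 on the log2 scale. Of the receptors for nucleic acids, Tlr3 (-1.45), Tlr8 (-1.58) and Tlr9 (-3.92) fell and Tlr7 (492 ± 44.0 and 534 ± 41.2 scaled CPM) did not pass. Tlr9 was at 81.5, 66.5 and 81.3 in control and 4.34, 4.70 and 6.89 in Aβ40 libraries (edgeR adjusted p = 5.83e-09), with no overlap. Irak2 and Irak3, the latter an inhibitor of the pathway, rose by 2.38 and 2.65, whereas the adaptor Myd88 stood at 148 ± 22.7 and 123 ± 6.63 and did not pass. Of 23 cytokine receptors and receptor antagonists tested, 11 rose and 7 fell (median 0.24). The oncostatin M receptor Osmr (4.02), the second TNF receptor Tnfrsf1b (2.36) and Il1rap, the shared chain of interleukin 1 receptors (1.55), rose. Csf3r (-4.07), Il6r (-1.88) and the interferon γ receptor chain Ifngr1 (-1.57) fell.

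Inhibitors that act as feedback on signalling were among the genes that rose. Socs3, the inhibitor of Jak signalling downstream of interleukin 6, was at 3.30, 3.67 and 2.75 scaled CPM in control and 206, 221 and 210.5 in Aβ40 libraries. The groups lay far apart, with a log2 fold change of 6.04 ± 0.22 (edgeR adjusted p = 1.30e-09). Cish rose by 4.30. In the JAK-STAT and SOCS list as a whole 8 of 19 tested members rose and 5 fell (median 0.25), or 3 without control replicate 1 or 3 or Aβ40 replicate 1, and among those that fell were Stat5a (-1.65) and Tyk2 (-1.20). MAP kinase phosphatases, which switch off stress and growth kinases, had 7 of 11 up and 1 down (median 1.25), and Dusp2 (3.72) and Dusp1 (1.73) rose most. Among AP-1, C/EBP and immediate early factors 16 of 30 rose and 4 fell (median 0.60). Fosl1, which encodes the AP-1 protein Fra-1, rose from 4.57 ± 0.810 to 115 ± 8.35 (log2 4.66) and Cebpb, a factor of acute-phase genes, from 14.9 ± 3.45 to 65.1 ± 7.27 (log2 2.09). Jun (-0.59), Egr2 (-2.90) and the myeloid differentiation factor Cebpa (-3.11) fell.

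Enzymes that make prostaglandin E2 and nitric oxide were among the largest increases. In the prostaglandin and leukotriene list 8 of 14 tested members rose and 3 fell (median 0.92). The share that rose was 57.1%, against 19.6% of all tested genes. The share that fell, 21.4%, was the same as over all tested genes. Ptgs2, the inducible cyclooxygenase COX-2, was at 15.3, 13.9 and 9.61 in control and 2067, 1976 and 2006 in Aβ40 libraries. The Aβ40 values lay close together, and the log2 fold change was 7.28 ± 0.33 (edgeR adjusted p = 5.83e-09). The inducible prostaglandin E synthase Ptges rose from 4, 2 and 0 counts in control to 110, 97 and 35 in Aβ40 libraries, and the constitutive cyclooxygenase Ptgs1 rose by 1.67 on the log2 scale. The secreted phospholipase Pla2g2a had 1, 0 and 0 counts in the control and 238, 298 and 131 in the Aβ40 libraries. The members that fell belong to lipoxygenase pathways, namely Alox15 (472, 342 and 475 counts in control and 4, 3 and 1 in Aβ40 libraries), the 5-lipoxygenase activator Alox5ap (-2.61) and the leukotriene A4 hydrolase Lta4h (-1.01).

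In the nitric oxide, arginine and biopterin list 7 of 12 tested members rose and 1 fell (median 0.85). Nos2, the inducible nitric oxide synthase, was at 45.0, 39.2 and 19.98 in control and 1303, 1194 and 1601 in Aβ40 libraries, lowest in control replicate 3 and highest in Aβ40 replicate 3. The groups did not overlap, and the log2 fold change was 5.29 ± 0.45 (edgeR adjusted p = 1.54e-06). The arginine transporter Slc7a2 rose from 3.57 ± 1.12 to 399 ± 17.8 (log2 6.79), argininosuccinate synthase Ass1, which regenerates arginine, from 4, 1 and 3 counts in control to 189, 157 and 60 in Aβ40 libraries, and Gch1, the first enzyme of the cofactor tetrahydrobiopterin, by 2.66. Spr, the last enzyme of that pathway, fell by 1.01. Arg1 is the arginase often taken as a sign of the alternative state. It had 1, 3 and 0 counts in the control and 8, 8 and 1 in the Aβ40 libraries, groups that overlap on scaled CPM. These counts were too few for the filter. Arg1 was tested, and counted among the 7, only through the Aβ42 libraries of the joint fit. Its adjusted p was 0.0239 by edgeR and 0.0707 to 0.0957 without control replicate 1 or 3 or Aβ40 replicate 1 or 2. With the control and Aβ40 libraries alone 10 members of the list were tested, of which 8 rose and 1 fell.

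Complement genes moved in both directions. Over the list 8 of 20 tested members rose and 9 fell, with a median of 0.10. Cfb, the protease of the alternative pathway, was at 24.7, 26.3 and 23.5 in control and 1104, 1096 and 1056 in Aβ40 libraries. Replicates differed little, and the log2 fold change of 5.45 ± 0.12 had an adjusted p of 9.62e-11 by edgeR's quasi-likelihood test. The proteases of the C1 complex rose, C1s by 5.30 and C1r by 2.84. The recognition chains of the same complex fell: C1qa was at 560.1, 445 and 704 in control and 35.0, 32.0 and 22.1 in Aβ40 libraries, with no overlap and a log2 fold change of -4.23 ± 0.26 (edgeR adjusted p = 6.76e-08), and C1qb and C1qc changed by -3.37 and -3.91. C4a, which shares sequence with C4b, rose by 2.88. The regulator Cd59 (log2 -3.01), properdin encoded by Cfp (-3.71) and the receptor C3ar1 (-3.72) fell, while the other anaphylatoxin receptor, C5ar1, rose by 0.96. The central component C3 was at 2469 ± 446 and 2791 ± 212 scaled CPM and the C1 inhibitor Serping1 at 218 ± 74.8 and 221 ± 12.6, and neither passed.

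Proteases that degrade matrix rose with some of their regulators. In the list of matrix metalloproteinases and inhibitors 13 of 23 tested members rose and 6 fell (median 1.44), 8 of them up 5-fold or more. Mmp9, a gelatinase, was at 456, 366 and 362 in control and 5282, 5645 and 6614 in Aβ40 libraries. The Aβ40 libraries were all higher, with a log2 fold change of 3.89 ± 0.15 (edgeR adjusted p = 1.81e-09). The macrophage elastase Mmp12 was at 6.83, 5.41 and 4.42 and 864, 821 and 962, and its log2 fold change of 7.29 ± 0.23 (edgeR adjusted p = 6.79e-10) was one of the larger ones in the list. Mmp13 rose by 7.90, the stromelysin Mmp3 by 7.60, the membrane-bound Mmp14 by 3.97 and Adamts4, which cuts proteoglycans, by 3.95. The plasminogen activators moved apart, since tissue activator Plat rose by 2.88 and urokinase Plau fell from 1003 ± 70.7 to 46.5 ± 5.87 (log2 -4.44, edgeR adjusted p = 1.34e-09). The urokinase receptor Plaur rose by 1.99. Timp1 rose by 0.61 and Timp2 fell by 1.45. Of 17 adhesion molecules tested, 8 rose and 4 fell (median 0.42), with Vcam1 going from 3.38 ± 1.39 to 314 ± 21.2 (log2 6.48), the hyaluronan receptor Cd44 up by 2.43 and Icam1 up by 1.51, and the integrins Itgb5 (-3.44) and Itga6 (-2.61) down.

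Interferon response genes rose in most of their members. Of 38 tested members 26 rose and 3 fell, with a median of 0.91, and 4 rose 5-fold or more. Rsad2 (viperin), an antiviral enzyme, was at 39.8, 22.0 and 30.5 in control and 428, 337 and 337 in Aβ40 libraries. No libraries overlapped, and the log2 fold change was 3.56 ± 0.24 (edgeR adjusted p = 2.12e-07). Irf7, the factor that amplifies type I interferon, was at 183, 93.3 and 191 and 669, 595 and 549, with the lowest value of each group still on its own side (log2 1.96 ± 0.27, edgeR adjusted p = 8.65e-05). The ubiquitin-like Isg15 rose by 2.76, its protease Usp18 by 3.15 and Ifit3 by 2.19. Gbp2, Gbp4 and Gbp5 rose by 1.94, 1.59 and 2.26, and Oasl by 2.99, within families whose reads may be shared. Of the signal carriers Stat2 rose by 0.78, while Irf1 (77.6 ± 4.65 and 79.5 ± 4.35) did not pass. The factor that fell most was Irf8, needed for myeloid development, at 186, 150.1 and 204 in control and 10.1, 18.6 and 11.9 in Aβ40 libraries (log2 -3.71 ± 0.21, edgeR adjusted p = 3.47e-08).

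Interferon-activated factors bind a spaced repeat of GAAA, and 3 promoters of risen genes are shown with it (RefSeq, GRCr8, the same window); capitals mark a match to GAAA, 2 bases of any kind and GAAA, here on the opposite strand. Irf7 (chr1:205799974-205800273, minus strand) and Ifit3 (chr1:241527076-241527375, plus strand) are on chromosome 1 and Rsad2 (chr6:48788071-48788370, minus strand) is on chromosome 6.
Irf7: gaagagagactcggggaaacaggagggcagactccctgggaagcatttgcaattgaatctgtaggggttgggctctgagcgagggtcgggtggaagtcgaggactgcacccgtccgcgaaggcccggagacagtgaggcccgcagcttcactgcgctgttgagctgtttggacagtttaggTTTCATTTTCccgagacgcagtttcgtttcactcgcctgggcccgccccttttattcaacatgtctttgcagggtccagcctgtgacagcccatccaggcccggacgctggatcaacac
Ifit3: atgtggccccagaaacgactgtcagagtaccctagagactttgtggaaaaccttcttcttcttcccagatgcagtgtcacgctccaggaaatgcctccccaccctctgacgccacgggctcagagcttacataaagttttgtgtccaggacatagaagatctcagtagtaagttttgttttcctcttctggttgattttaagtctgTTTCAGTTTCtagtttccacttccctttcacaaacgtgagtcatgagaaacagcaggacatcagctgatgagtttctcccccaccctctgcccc
Rsad2: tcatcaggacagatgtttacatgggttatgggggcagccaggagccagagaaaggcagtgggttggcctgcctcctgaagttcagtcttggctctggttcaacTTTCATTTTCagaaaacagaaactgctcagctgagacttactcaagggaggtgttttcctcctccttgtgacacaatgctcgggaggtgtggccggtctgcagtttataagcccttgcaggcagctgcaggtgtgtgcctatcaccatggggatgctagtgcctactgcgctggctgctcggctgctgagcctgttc
The match lies 69 bases before the start in Irf7, 44 in Ifit3 and 147 in Rsad2. It was found in 3.92% of all rat promoters, in 2.91% of the tested genes with a sequence, and in 18 of the 29 interferon response members with one (62.1%). Of those 18 genes, 17 rose and Bst2 (124 ± 34.1 and 172 ± 19.3) did not pass. The share was 7% among genes up 5-fold or more and 4.28% among genes down 5-fold or more. In the lysosome list, most of whose called members fell, 5 of 41 promoters held it (12.2%), and in the cell cycle and homeostatic lists 0 did. The interferon response list was written by hand, so its share describes that list. In 3 promoters of the whole table the matches to both motifs overlap.

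Antigen presentation genes rose in 19 of 25 tested members and fell in 0, with a median of 0.82. The class II genes were low in control and rose, RT1-Ba from 2.75 ± 0.153 to 21.2 ± 3.61 (log2 2.96) and RT1-Da from 2.67 ± 1.12 to 18.3 ± 3.96 (2.74), and their invariant chain Cd74 rose by 0.85. Among co-stimulatory molecules Cd40 rose by 2.48, Cd80 by 1.92 and Cd86 by 0.82, and the inhibitory ligand Cd274 (PD-L1) by 1.30. The peptide transporter Tap1 rose by 0.95, while B2m, the light chain of class I, was at 2176 ± 106 and 2987 ± 393 and did not pass (edgeR adjusted p = 0.063), although it did in several alternative settings, DESeq2's Wald test among them (adjusted p = 0.0483). The RT1 genes are similar in sequence and vary between rat strains, so single RT1 values are uncertain.

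Genes of resting microglia fell. Of 32 tested homeostatic genes 24 fell and 4 rose, with a median log2 fold change of -1.58, and 14 fell 5-fold or more. Csf1r, the receptor for the survival factors Csf1 and interleukin 34, was at 2414, 2323 and 2745 scaled CPM in control and 179.5, 154 and 166 in Aβ40 libraries. Every Aβ40 library was far below every control library, with a log2 fold change of -3.90 ± 0.13 (edgeR adjusted p = 1.16e-09). The ADP receptor P2ry12, by which resting processes find injury, was at 41.4, 36.7 and 51.9 and 0.483, 0.671 and 1.84 scaled CPM (2, 3 and 4 counts; log2 -5.67). Receptors near or under the detection limit in Aβ40 libraries were Cx3cr1, with 268, 182 and 286 counts in control and 2, 1 and 0 in Aβ40 libraries, Gpr34 with 1114, 710 and 972 and 0, 1 and 2, and P2ry13 with 194, 89 and 169 and 1, 1 and 1. The oxysterol receptor Gpr183 (log2 -5.94), the transporter Slco2b1 (-6.98), the Fc receptor-like Fcrl2 (-5.75) and the receptor for apoptotic cells Mertk (-2.79) fell. The receptor chains for TGF-β, a factor on which microglial identity depends, fell too (Tgfbr1 -1.68, Tgfbr2 -1.12). Tmem119 was low in both groups (4.08 ± 0.183 and 1.31 ± 0.740; log2 -1.46). Of the lineage factors Spi1 fell by 0.47, and Sall1 was at 50.05 ± 2.48 and 43.6 ± 4.16 and did not pass. The 4 that rose were Siglec5 (1.51), Itgam (1.04), Olfml3 (0.88) and Adgrg1 (0.78).

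Of the remaining homeostatic genes, those that fell included Itgb5 (-3.44), Entpd1 (-3.46), Slc2a5 (28, 22 and 27 counts in control and 2, 3 and 2 in Aβ40 libraries), Cst3 (-1.58), Selplg (-1.45), Aif1 (-0.67), P2ry6 (-0.64) and Sparc (-0.58). Entpd1 is the ectonucleotidase CD39, Cst3 a secreted cysteine protease inhibitor and Aif1 the marker Iba1. Bin1 (139 ± 9.22 and 174 ± 26.2) and Mef2a (158 ± 9.22 and 125 ± 10.03) did not pass.

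Disease-associated microglia genes did not rise as a group in these cultures: 7 of 33 tested members rose and 20 fell, with a median of -0.58, against 0.01 over all genes. Trem2 was at 414, 422 and 500.3 in control and 146, 149.8 and 142 in Aβ40 libraries. Each Aβ40 library was below each control library, with a log2 fold change of -1.61 ± 0.13 (edgeR adjusted p = 6.42e-07), while its adaptor Tyrobp changed by -0.39. Apoe was at 7665, 9418 and 9218 and 3261, 3400 and 3982, again without overlap (log2 -1.30 ± 0.13, edgeR adjusted p = 6.71e-06). Lpl, the lipoprotein lipase, was at 2449, 3287 and 2956 and 16.9, 13.6 and 17.9. It showed the largest fall of this list, -7.51 ± 0.40 (edgeR adjusted p = 2.12e-08). Igf1, a growth factor, was at 471, 503 and 512 in control and 10.4, 9.17 and 11.5 in Aβ40 libraries (log2 -5.60 ± 0.24). Gpnmb (log2 -2.01), the osteopontin gene Spp1 (-1.25), the receptor for fungal glucans Clec7a (-1.49) and the TAM receptor Axl (-1.06) fell. Among further members that fell were Cybb of the phagocyte oxidase (-2.09), lysozyme Lyz2 (-2.14), Gpr84 (-2.57), Fam20c (-2.38), Cd68 (-1.03), Cd9 (-0.54), the lipid droplet protein Plin2 (-0.58), the inhibitor Timp2 and the cathepsins Ctsb (-0.76), Ctsz (-0.71) and Ctsd (-0.41). The members that rose were the chemokine Ccl6 (2.16), the cathepsin inhibitor Cst7 (1.77), Ch25h, which makes 25-hydroxycholesterol (1.61), Hif1a (0.83), Fabp5 (0.78), ferritin heavy chain Fth1 (0.75) and Csf1. Lgals3 (597 ± 42.3 and 639.9 ± 32.4), Ctsl (602 ± 36.8 and 617 ± 25.8) and Cd63 (834 ± 94.3 and 734 ± 24.3) overlapped between the groups and did not pass, nor did B2m, Lilrb4 and Cd83.

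**Figure D3:**
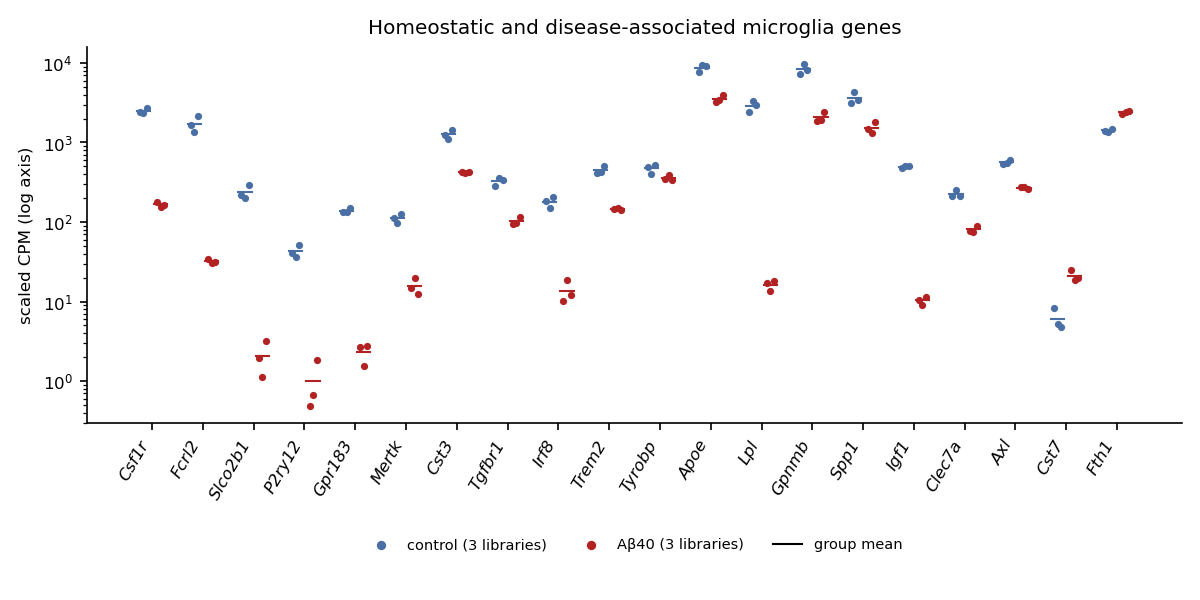
Scaled CPM on a log axis of homeostatic and disease-associated microglia genes in the 3 control (blue) and 3 Aβ40 libraries (red), with a bar at each group mean. The Aβ40 points lie below the control points for the genes shown, such as Csf1r, Trem2 and Apoe, other than Cst7 and Fth1, for which they lie above.

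Receptors for uptake were mixed. Of 28 phagocytic and scavenger receptors 14 fell and 6 rose (median -0.47). The mannose receptor Mrc1 fell from 969 ± 39.6 to 82.2 ± 5.26 (log2 -3.56). The collectin Colec12 (-2.13), the inhibitory receptor Sirpa (-2.09) and Syk (-1.43), a kinase that carries Fc receptor and Trem2 signals, fell. Cd36, which binds oxidised lipids and fibrillar Aβ, had 239, 167 and 313 counts in control and 1, 2 and 0 in Aβ40 libraries. The C-type lectins Clec4d and Clec4e (Mincle) rose by 5.38 and 3.85, whereas Clec4a3 of the same cluster fell by 4.53. The scavenger receptor Msr1 rose by 1.20 and the inhibitory Fc receptor Fcgr2b by 1.83, and Lrp1 was at 792 ± 61.1 and 738 ± 25.8 and did not pass.

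Of the purinergic receptors and enzymes of extracellular nucleotides all 16 tested passed, with 6 up and 10 down (median -0.80). The adenosine receptor Adora2a was at 0.707, 0.193 and 0.458 in control and 50.4, 68.0 and 56.1 in Aβ40 libraries. It lay near the detection limit in control only (6, 1 and 3 counts), with a log2 fold change of 6.84 ± 0.34 (edgeR adjusted p = 1.40e-08). The adenosine receptors Adora1 and Adora2b rose by 2.48 and 2.20 and the UTP receptor P2ry2 by 2.27. The ATP-gated channels P2rx7 (-3.13) and P2rx4 (-0.91), the ADP receptor P2ry1 (-3.11) and the adenosine-forming enzyme Nt5e (-2.76) fell. In the TGF-β pathway 9 of 25 rose and 4 fell (median -0.02), with Bmp2 (2.53) among the former and the ligand Tgfb1 (-0.62) among the latter.

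Lysosomal genes fell in 34 of 54 tested members and rose in 4, with a median of -0.69. Cathepsin C (Ctsc), which activates granule proteases, was at 521, 495 and 635 in control and 81.6, 74.2 and 63.9 in Aβ40 libraries. The groups were clearly apart, with a log2 fold change of -2.90 ± 0.14 (edgeR adjusted p = 8.35e-09). The thioesterase Ppt1 (log2 -3.14), the nuclease Dnase2 (-2.49), cathepsin S encoded by Ctss (-2.26), the acid lipase Lipa (-2.13), the legumain gene Lgmn (-1.77) and the progranulin gene Grn (-1.19) fell. Tfeb, a regulator of lysosomal genes, fell by 1.27, while its relative Tfe3 was at 162 ± 13.9 and 165 ± 4.28 and did not pass. The 4 that rose were subunits of the proton pump, Atp6v0d2 (2.32), Atp6v1e1 (1.48) and Atp6v0a1 (0.87), and the acid sphingomyelinase Smpd1 (1.45).

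Cholesterol efflux and lipid storage was the list with the largest share of members that fell. Of 21 tested 18 fell and 3 rose (Ch25h, Fabp5 and the liver X receptor Nr1h3, 0.90), with a median of -1.27. Pparg, the lipid-sensing nuclear receptor, had 204, 161 and 278 counts in control and 2, 2 and 0 in Aβ40 libraries, and its target Fabp4 fell by 2.35. The phospholipid transfer protein Pltp (log2 -2.81), fatty acid synthase Fasn (-1.37), the cholesterol esterifying enzyme Soat1 (-1.27) and the exporters Abca1 (-0.56) and Abcg1 (-0.66) fell. In cholesterol synthesis 13 of 26 fell and 2 rose (median -0.41), none of them by 5-fold. The squalene epoxidase Sqle (log2 -0.60) and the regulator Insig1 (-0.64) fell.

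Genes of glycolysis and hypoxia rose in 20 of 35 tested members and fell in 4 (median 0.65), or in 2 without control replicate 1 or 3 or Aβ40 replicate 1 or 3. The glucose transporter Slc2a1 was at 110.5, 112 and 101 in control and 789, 801 and 837 in Aβ40 libraries. It did not overlap between groups and changed by 2.91 ± 0.11 on the log2 scale (edgeR adjusted p = 1.62e-09). Hexokinase 1 (Hk1) rose by 1.69, enolase Eno1 by 1.20, lactate dehydrogenase Ldha by 0.78, the lactate transporters Slc16a3 and Slc16a1 by 2.15 and 1.55, and Vegfa by 1.23. Ndrg1, often induced by low oxygen, fell by 1.16. The respiratory chain changed in fewer members, with 15 of 71 lower and 2 higher (median -0.16), a share of lower genes (21.1%) close to that of all tested genes (21.4%). No member passed with a change of 2-fold or more. The number that fell was 8 without control replicate 1 or 3, 9 without Aβ40 replicate 1 and 26 without Aβ42 replicate 1.

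Stress responses differed between lists. In the NRF2 and glutathione list 16 of 34 rose and 3 fell (median 0.27). Slc7a11, which imports cystine for glutathione, was at 10.4, 10.6 and 7.02 in control and 689, 633 and 743 in Aβ40 libraries. Its log2 fold change was 6.20 ± 0.24 (edgeR adjusted p = 2.00e-09), with no overlap. The metallothioneins Mt2A and Mt1a rose by 6.69 and 3.13, the quinone reductase Nqo1 by 2.98 and the mitochondrial superoxide dismutase Sod2 by 2.17. Hmox1, the haem-degrading enzyme and a typical NRF2 target, was at 318 ± 43.1 and 338 ± 40.4 and did not pass, and Nfe2l2, which encodes NRF2, fell by 0.48. In the unfolded protein and heat shock list 9 of 36 rose and 6 fell (median -0.05), shares of 25% and 16.7% that lie near the 19.6% and 21.4% of all tested genes, and 11 fell without Aβ42 replicate 1. Trib3 (2.79), Ppp1r15a (2.31) and Ddit3 (1.09) rose, genes known to lie downstream of Atf4, while the chaperone Hspa5 was at 915 ± 47.6 and 1016 ± 51.1 and did not pass and Edem1, of protein degradation in the endoplasmic reticulum, fell by 1.44.

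Cell cycle genes fell in 40 of 58 tested members and rose in 5, with a median of -0.81, although none fell 5-fold. The proliferation marker Mki67 was at 102, 122 and 142 in control and 53.8, 50.3 and 59.8 in Aβ40 libraries. The groups did not overlap, and the log2 fold change was -1.17 ± 0.16 (edgeR adjusted p = 0.0001). The topoisomerase Top2a (log2 -1.03), the replication helicase subunits Mcm2 (-1.20) and Mcm6 (-1.08) and the factor E2f1 (-1.81) fell. Of the 5 that rose, 4 encode inhibitors of cyclin-dependent kinases: Cdkn2a (1.504 ± 1.10 to 39.4 ± 1.2, log2 4.63), Cdkn2b (2.87), Cdkn1a (1.37) and Cdkn1b (0.42). The call for Cdkn1b was lost without any 1 of the 6 libraries (edgeR adjusted p = 0.0599 to 0.171). The fifth was the replication licensing factor Cdt1 (0.84). Among genes of apoptosis and necroptosis 16 of 29 rose and 7 fell (median 0.55), and 4 fell without control replicate 1 or 3 or Aβ40 replicate 2 or 3. The death receptor Fas rose by 4.13 and its inhibitor Cflar by 3.77. The inflammasome sensor Nlrp3 rose by 1.47, while its adaptor Pycard (ASC) was at 51.5, 38.8 and 73.2 in control and 4.10, 4.70 and 5.98 in Aβ40 libraries (log2 -3.52 ± 0.32, edgeR adjusted p = 2.40e-06) and Casp1 at 86.2 ± 11.5 and 75.1 ± 2.54 did not pass.

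**Figure D4:**
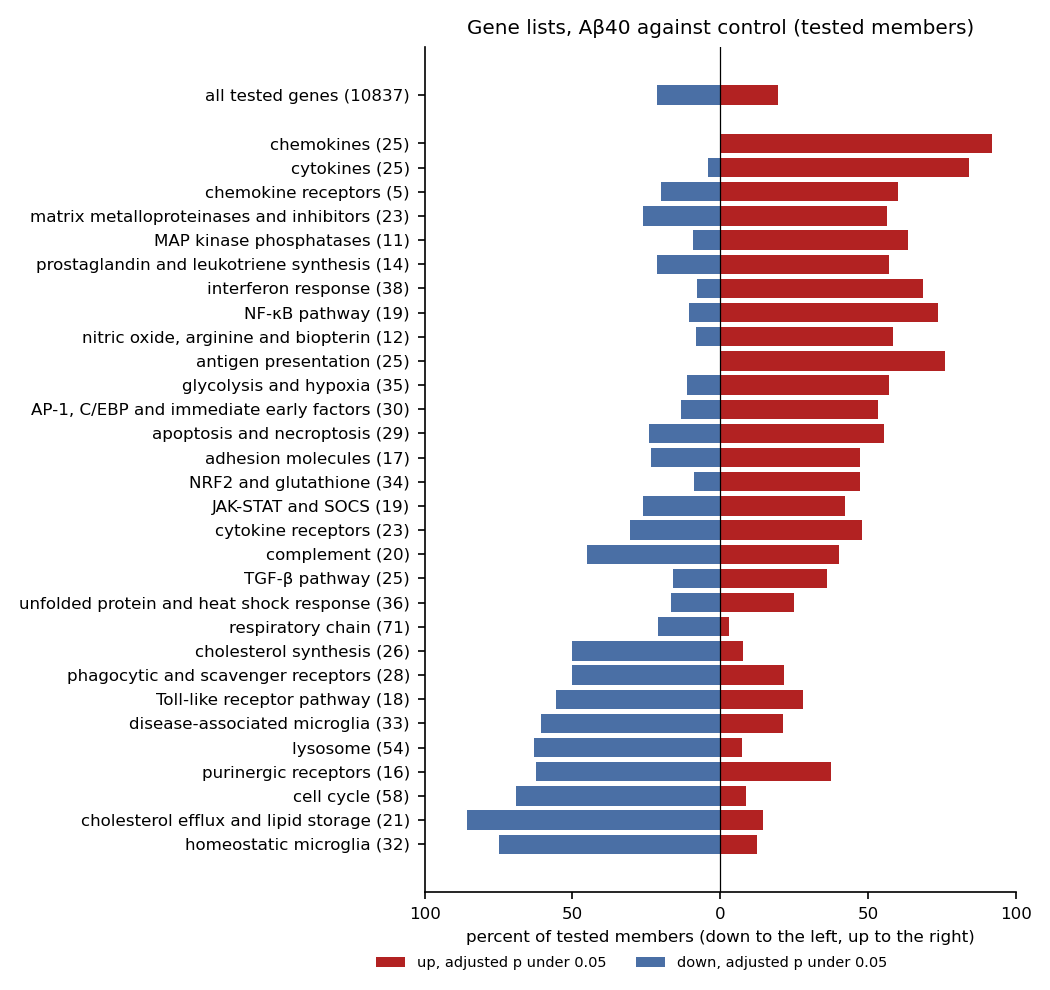
Percent of the tested members of each gene list that rose (red, right) or fell (blue, left) at an adjusted p under 0.05 in Aβ40 against control microglia, with the number tested in brackets and all 10837 tested genes on top. Chemokines reach 92% up and cholesterol efflux and lipid storage 85.7% down, against 19.6% and 21.4% over all genes; some genes are in more than 1 list.

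Outside these lists, the genes with the smallest p-values and the largest changes included several that are not known mainly from inflammation. Scin, an actin-severing protein, was at 0.589, 0.773 and 0.458 in control and 132, 127 and 130.1 in Aβ40 libraries. It had a log2 fold change of 7.73 ± 0.18 (edgeR adjusted p = 9.62e-11). The transglutaminase Tgm1 rose from 0.671 ± 0.264 to 69.7 ± 3.56 (log2 6.72). Aqp3, a channel for water and glycerol, had 0 counts in the 3 control libraries and 13.5, 15.9 and 18.4 scaled CPM in the Aβ40 libraries, at least 34.4-fold higher against the limit of 3 counts per library. Likewise with 0 counts in control, the lectin receptor Asgr1 was at least 32.7-fold, the LIM homeobox factor Lhx4 at least 29.2-fold and the epithelial factor Elf3 at least 22.1-fold higher. Il17f had 1, 0 and 0 counts in control and 158, 188 and 52 in Aβ40 libraries. Among genes that fell, the retinol dehydrogenase Dhrs9 was at 174, 194 and 199 and 7.96, 6.71 and 9.19 (log2 -4.60 ± 0.14, edgeR adjusted p = 6.66e-10). The B cell linker Blnk (log2 -5.09), Rarres1 (-4.18), MGC112715 (-3.69), the Rab5 exchange factor Rin2 (-2.84) and the pore-forming protein Mpeg1 (-2.79) fell. The signalling adaptor Stap1 had 1084, 773 and 878 counts in control and 3, 0 and 1 in Aβ40 libraries, and the receptor Mrgprx3 had 367, 185 and 362 and 2, 1 and 1. F13a1, a coagulation factor subunit of macrophages, had 1, 2 and 0 counts in control and 4, 6 and 1 in Aβ40 libraries. It passed as an increase, but at these counts it was tested only through the Aβ42 libraries of the joint fit. Its call was lost without control replicate 1 or 3 or Aβ40 replicate 1 or 2. Fam110c and Cftr, with 0 counts in control, had 8, 5 and 6 and 7, 5 and 2 counts in Aβ40 libraries. Both were too low to be tested.

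Microglia treated with Aβ42 fibrils at the same dose and time (3 libraries) show where the Aβ40 response differs from that to the longer peptide, which has an added isoleucine and alanine at its end. The comparison needs care, since Aβ42 replicates 2 and 3 were the deepest of the microglia libraries, and Aβ42 replicate 1, as shallow as the Aβ40 libraries, resembled them (r = 0.976 to 0.983 on log2 CPM across genes) more than its own group (0.962 to 0.963). Peptide, depth and single libraries therefore cannot be told apart for small differences. At an adjusted p under 0.05 by edgeR's quasi-likelihood test 2198 genes (20.3%) differed, 1222 (11.3%) higher and 976 (9.01%) lower with Aβ42. The count was 6004 without Aβ42 replicate 1, 121 and 99 without Aβ42 replicates 2 and 3, and 127, 154 and 153 without Aβ40 replicates 1, 2 and 3.

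Cholesterol synthesis was the list with the largest share of members that differed. Of its 26 members 20 were higher and 0 lower with Aβ42 than with Aβ40, with a median difference of 0.80 on the log2 scale, and without Aβ42 replicate 1 the numbers were 21 and 1 with a median of 0.82. Against control, the list's median was -0.41 with Aβ40 and 0.29 with Aβ42, comparisons that share the control libraries. Insig1 was at 102, 117 and 92.3 scaled CPM in control, 72.4, 61.1 and 66.2 in Aβ40 and 143, 186 and 170.2 in Aβ42 libraries. All Aβ42 libraries were above all Aβ40 libraries, with a difference of 1.33 ± 0.13 (SE; edgeR adjusted p = 0.00162). Sqle was at 88.6, 82.3 and 87.8 in Aβ40 and 149.5, 170.2 and 154 in Aβ42 libraries (difference 0.88 ± 0.11, edgeR adjusted p = 0.00284). When 1 of the other treated libraries was left out, 9 to 12 members of the list were higher and 0 lower. Genes of glycolysis and hypoxia were higher with Aβ42 in 19 of 35 members and lower in 0, for example Vegfa by 1.20 and Slc16a3 by 1.29, and NRF2 and glutathione genes in 18 of 34 and 0, for example Srxn1, which repairs peroxiredoxins, by 1.03 and Hmox1 by 0.98. When 1 of those libraries (Aβ42 replicates 2 and 3 and the Aβ40 replicates) was left out, 8 to 11 of the former list and 4 to 7 of the latter were higher and 0 lower, and without Aβ42 replicate 1 the numbers were 23 and 26 higher and 4 and 2 lower. In the respiratory chain 24 of 71 were higher and 1 lower, with 47 and 8 without Aβ42 replicate 1, 5 and 0 with a replicate block, and 0 and 0 when any 1 of Aβ42 replicates 2 and 3 and the Aβ40 replicates was left out.

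Interferon response genes lay on the other side, with 1 of 38 higher and 11 lower with Aβ42, for example Gbp5 (log2 difference -0.83) and Ifit2 (-0.74). Without Aβ42 replicate 1 the numbers were 4 and 13, and when 1 of the other treated libraries was left out 0 members were higher and 2 or 3 lower, with the call for Gbp5 lost (edgeR adjusted p = 0.0609 to 0.115). For some leading genes of the comparison with control the difference between the fibrils did not pass. It was -0.08 ± 0.12 for Il1b, 0.04 ± 0.10 for Cfb, 0.03 ± 0.12 for Csf1r and -0.29 ± 0.11 for Tnf, and the last passed without Aβ42 replicate 1 (-0.36, edgeR adjusted p = 0.00609) and with library totals alone (edgeR adjusted p = 0.0491). Trem2 stood at 146, 149.8 and 142 with Aβ40 and 206, 271 and 255 with Aβ42, a difference of 0.74 ± 0.12 (edgeR adjusted p = 0.0081), and with both fibrils below the control libraries.

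**Figure D5:**
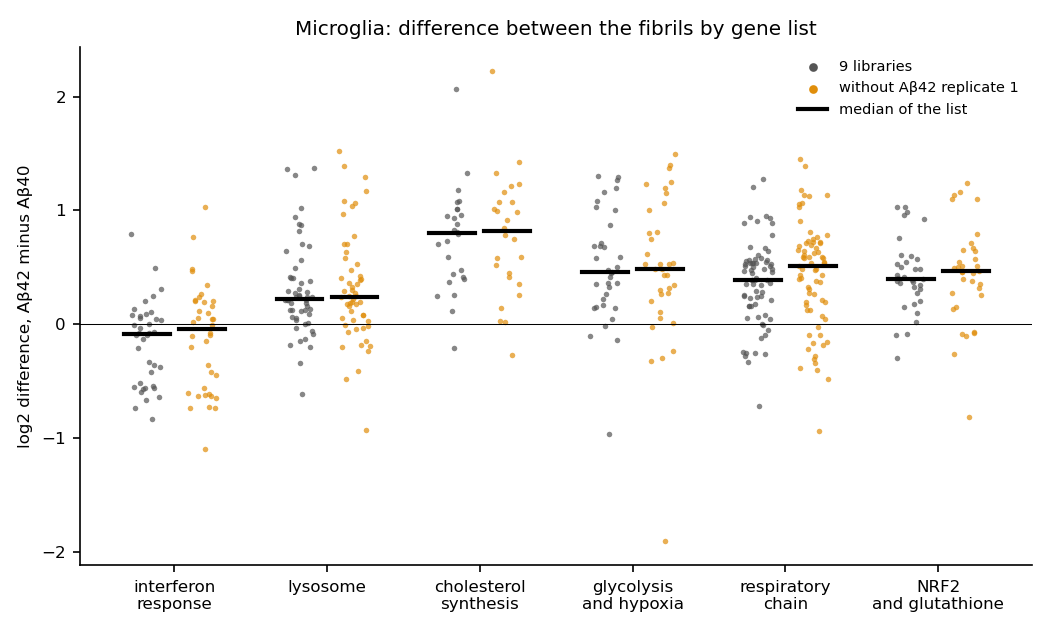
Log2 difference between Aβ42 and Aβ40 fibril-treated microglia for the members of 6 gene lists (points) with the median of each list (bar), from the fit of 9 libraries (grey) and without Aβ42 replicate 1 (orange). Cholesterol synthesis genes center at 0.80 and 0.82, and the median of interferon response genes lies just below 0 in both.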

How the data were processed

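The authors aligned the reads to the rat genome (rn5) with STAR and deposited raw counts per gene for each sample, with no normalization. The study's methods name Salmon for quantification and DESeq2 for the gene counts, and the tool that wrote the deposited counts and all versions are not given in the sources used here. Rows that name no gene held 21.7 to 24.5% of the reads of the control and Aβ40 libraries and were left out, which left 17327 gene symbols. Groups were taken from the sample labels. The 9 microglia libraries were fitted together with edgeR 4.0.16 in R 4.3.3. The fit used TMM scaling, genes kept by filterByExpr, the quasi-likelihood test and Benjamini-Hochberg adjustment over the 10837 genes tested. Aβ42 libraries therefore contribute to the estimate of the spread and to which genes were kept for testing. The fitted log2 fold change of a gene with few counts in a group depends on edgeR's prior count, and for genes at or under the detection limit counts or a bound are printed beside it or in its place. Genes whose control mean lay just above that limit, such as Lta, Scin and Tgm1, are given without counts. Their fitted folds depend on the prior count too. On simulated counts of 10750 genes for the comparison of Aβ40 with control, 89% of genes changed 2-fold and 100% of genes changed 5-fold were recovered. In this simulation only 200 genes changed, with as many up as down, and Aβ42 libraries did not differ from control. In the data 4445 genes were called, so these shares check the procedure and do not give the power of the real comparison. Replicates of a group differed by more than sampling noise. The sources do not say that replicate numbers pair libraries across groups, and the main fit used no block. Same-numbered control and Aβ40 libraries did not deviate together from their group means. The Aβ42 libraries were not checked in this way. Alternatives were other scalings, DESeq2 1.42.0, other filters, the 6 libraries alone, a replicate block and leaving out each library.

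The gene lists and the genes described were chosen with earlier results of these data known. Named genes are those with the smallest p (12 per direction) and the largest change (8 per direction, at 10 or more scaled CPM in the higher group) without overlap of the libraries, leaving out LOC and RGD symbols, the leading, opposite and defining members of each list, all tested homeostatic and disease-associated microglia genes, and genes the study names; some genes that meet this rule are not reported here. Promoter sequences are from RefSeq (GRCr8) by gene symbol, and none of its coordinates were joined to the counts. The libraries of other cell types were not used here.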

Additional observations from a re-analysis of the deposited data

How the results depend on the processing

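Of 3962 recomputed gene values of Aβ40 against control 3906 kept their direction and their side of the threshold, as did 119 of 130 between the fibrils. Of 840 recomputed counts of list members against control 797 stayed within 1.5 times. The values against control do not include the fits without Aβ42 replicate 2 or 3. Those between the fibrils do not include the other filters, the 6 libraries alone or the fits without a control library. Requiring 10 counts in every library, which leaves 9253 genes, gave 643 genes up and 621 down 2-fold or more, and 160 up and 121 down 5-fold or more. Genes near 0 in a group are removed by it: 14 of 15 chemokines and 11 of 14 cytokines then tested were up, 15 of 23 homeostatic genes were down, and of 9 purinergic genes 3 were up and 6 down. The number of genes that differed between Aβ40 and control was 3608 to 6029 when 1 library was left out and 5624 with the 6 libraries alone, and 45.9 to 49.5% of the calls were increases in every setting. DESeq2's Wald test called 4412. The number of genes that differed between Aβ42 and Aβ40 was 99 to 6004 when 1 library was left out, with 6004 without Aβ42 replicate 1, 121 and 99 without Aβ42 replicates 2 and 3, 127, 154 and 153 without Aβ40 replicates 1, 2 and 3, and 1048 and 1204 without control replicates 1 and 3. With a replicate block it was 752, while 4191 genes differed between Aβ40 and control. Same-numbered control and Aβ40 libraries did not deviate together (r = 0.08, -0.04 and -0.04). With 3 libraries a group this check cannot decide whether libraries share a culture or batch. The Aβ42 libraries were not checked in this way, so it is not known whether the block is a pairing. The cause of these shifts was not tested.

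Some genes lost their call when 1 library was left out: Tyrobp (without control replicate 1 or 3 or Aβ40 replicate 1 or 3), Ctsd (control replicate 2 or 3, Aβ40 replicate 1 or 2), Cd68 (Aβ40 replicate 1 or 2), Csf1 (control replicate 3, Aβ40 replicate 3), Tmem119 and Cdkn1b (any of the 6), and the low-count genes Arg1 and F13a1 (control replicate 1 or 3, Aβ40 replicate 1 or 2). Cdkn1b also lost it with the block. B2m, Bin1, Bst2, Il18, Mef2a and Myd88, which did not pass, passed with the 6 libraries alone and without Aβ42 replicate 1. B2m also passed with DESeq2's Wald test, library totals alone and no filter (adjusted p = 0.0483, 0.0419 and 0.0496), Bin1 without Aβ40 replicate 3 (0.0423) and Myd88 without control replicate 2 (0.0189). A few values near 0 changed sign when 1 library was left out. The log2 fold change of Aβ40 against control ran from -0.15 to 0.35 for Serping1 (-0.000664 with library totals alone), from -0.00269 to 0.0877 for Irf1 and from -0.0201 to 0.0998 for Tfe3, and the difference between the fibrils from -0.0361 to 0.104 for Cfb, from -0.056 to 0.134 for Csf1r and from -0.137 to 0.0166 for Il1b.

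A count of 3 corresponds to 0.925 scaled CPM in the Aβ40 group, so falls of genes that stood near this level in control were not detectable at this depth. With 3 libraries a group and no statement of separate cultures, the tests describe these libraries.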
